A study of Mus musculus with 106 samples.

Results

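The genes described here are 9 classical responders to glucocorticoid hormone or to the FOXO transcription factors: Zbtb16, Fkbp5, Tsc22d3, Sgk1, Fbxo32, Trim63, Cdkn1a, Ddit4 and Nr3c1, the last being the glucocorticoid receptor itself. They were taken by symbol from the 19168 genes listed in all 4 count tables of the series, and all 9 were listed in each table. They were selected on earlier results of these data, namely their changes against 22 °C, so those changes are given as a description, and the fits behind them were made across all genes of each tissue.

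Male C57BL/6J mice (named C57BL/6 in part of the labels, wild type, 8 weeks old at the start) were housed at 10, 22 or 34 °C and their tissues profiled by RNA-seq. In the cold experiment, mice spent 5 days at 18 °C, 5 days at 14 °C and then 2 weeks at 10 °C, and 11 tissues were compared with 22 °C controls (labelled age 11 weeks, quadriceps 12 weeks): interscapular brown fat (iBAT), inguinal subcutaneous fat (ingSAT), perigonadal visceral fat (pgVAT), liver, ileum, quadriceps, spleen, bone marrow, brain without hypothalamus, hypothalamus and spinal cord. In the warm experiment, mice from another supplier spent 4 weeks at 34 °C (labelled age 12 weeks), and iBAT, liver, ileum, quadriceps and brain were compared with 22 °C controls of their own. There were 106 libraries in 31 groups, with 3 libraries in most groups. Most libraries were pools of 2 mice. Those of bone marrow (6 mice a group), spinal cord (5 mice a group) and most iBAT libraries of the warm experiment (3 mice at 22 °C, 2 mice and 1 pool at 34 °C) came from individual mice. Depth ran from 4262403 to 58290770 counts in the 76 cold-experiment libraries and from 29545458 to 62880248 in the 30 warm-experiment libraries. The experiments differed in supplier, age, duration and, for most tissues, library kit and sequencing site, so 10 °C and 34 °C are each set against their own 22 °C libraries.

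Each tissue's defining markers were present in its libraries, but some libraries also carried transcripts of a neighbouring or unrelated tissue. The 22 °C brain library 2 of the cold experiment held 65159 CPM (counts scaled to the library size) of 5 hepatocyte markers, against 733 to 1102 CPM in the other 22 °C brain libraries and 973 to 998 CPM at 10 °C. Skeletal muscle markers in iBAT and ingSAT, epididymis markers in pgVAT and fat markers in quadriceps are given below beside the genes they touch. Libraries are named by their group and their number in the tables. For quadriceps and for the warm experiment that number is only a column number, and the labels do not tie it to the same mice across tissues.

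Glucocorticoids (corticosterone in mice) bind the receptor encoded by Nr3c1, which then moves to the nucleus and switches genes on at response elements or represses them. FOXO factors act downstream of insulin signalling: insulin keeps them out of the nucleus, while fasting and glucocorticoids favour their activity, so the response programs of receptor and FOXO share targets in muscle, fat and liver. Fkbp5 and Tsc22d3 are commonly used as readouts of glucocorticoid action, and Fbxo32 (atrogin-1) and Trim63 (MuRF1) as readouts of muscle protein breakdown.

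Promoter windows in RefSeq (GRCm38.p6, 250 bases before to 50 after each transcription start) existed for 6 of the 9 genes, as 14 windows in a set of 32851. The windows were searched on both strands for the palindromic response element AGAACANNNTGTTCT, for its arm AGAACA alone (which also lies inside the palindrome) and for the FOXO element GTAAACA. The palindrome occurred in 3 of all windows (0.00913%), and 1 of these was a window of Sgk1. The arm occurred in 6233 windows (19%), among them windows of Sgk1, Trim63 and Tsc22d3. The FOXO element occurred in 1199 windows (3.65%), among the 9 genes only in that of Trim63. There it directly adjoined the arm, an arrangement found in 5 windows (0.0152%). Stretches that hold these letters, 250 to 151 bases before the start, are shown because Sgk1, Trim63 and Tsc22d3 are among the genes called below. Capitals mark the letters matched on either strand.
Sgk1 (chr10:21993640-21993739, plus strand): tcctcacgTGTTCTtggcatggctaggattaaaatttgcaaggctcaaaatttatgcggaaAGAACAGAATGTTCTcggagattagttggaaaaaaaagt
Trim63 (chr4:134314870-134314969, plus strand): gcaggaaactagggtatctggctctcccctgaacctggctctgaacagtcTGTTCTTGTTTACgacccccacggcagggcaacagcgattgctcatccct
Tsc22d3 (chrX:140600673-140600772, minus strand): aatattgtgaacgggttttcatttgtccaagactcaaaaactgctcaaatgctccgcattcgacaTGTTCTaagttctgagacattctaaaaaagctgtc
The Sgk1 palindrome (chr10:21993701-21993715) ended 175 bases before the start at 21993890, in an intron of longer Sgk1 transcripts, and the gene spans chr10:21882184-21999903. The Trim63 and Tsc22d3 stretches lay upstream of the annotated genes (chr4:134315120-134329629 and chrX:140539528-140600659). None of the shown stretches overlapped an annotated exon. A match of letters describes the sequence only and says nothing about binding.

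At 22 °C the 9 genes had distinct tissue patterns, given here as CPM per kb of exon so that genes can be set side by side (mean ± SD). The muscle ligases stood highest in quadriceps, Trim63 at 88.7 ± 11.7 (n = 3) and Fbxo32 at 55.8 ± 17.01 CPM per kb (n = 3). Trim63 was next highest in iBAT (5.203 ± 1.68, n = 3) and reached no more than 1.39 ± 0.352 CPM per kb (ingSAT, n = 3) in any other tissue of the cold experiment, whereas Fbxo32 was present in all of them. Zbtb16, encoding the zinc finger factor PLZF, was highest in pgVAT (40.8 ± 9.94 CPM per kb) and ingSAT (25.9 ± 4.47) and lowest in ileum (0.931 ± 0.354). Fkbp5 was also highest in pgVAT (16.6 ± 3.57 CPM per kb) and lowest in iBAT (1.29 ± 0.317). Ileum had the highest Sgk1 (32.6 ± 7.58 CPM per kb) and Cdkn1a (18.8 ± 1.47) of the table of 8 tissues. Spleen had the highest Ddit4 (26.7 ± 1.94 CPM per kb), and Tsc22d3 was 45.2 ± 6.40 in spleen, with ranges that overlapped those of brain. Nr3c1 varied least, from 150.7 CPM in liver to 409.8 CPM in pgVAT, a ratio of 2.72 between mean CPM in the table of 8 tissues, against 43.9 for Zbtb16 and 26.5 for Cdkn1a.

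**Figure D1:**
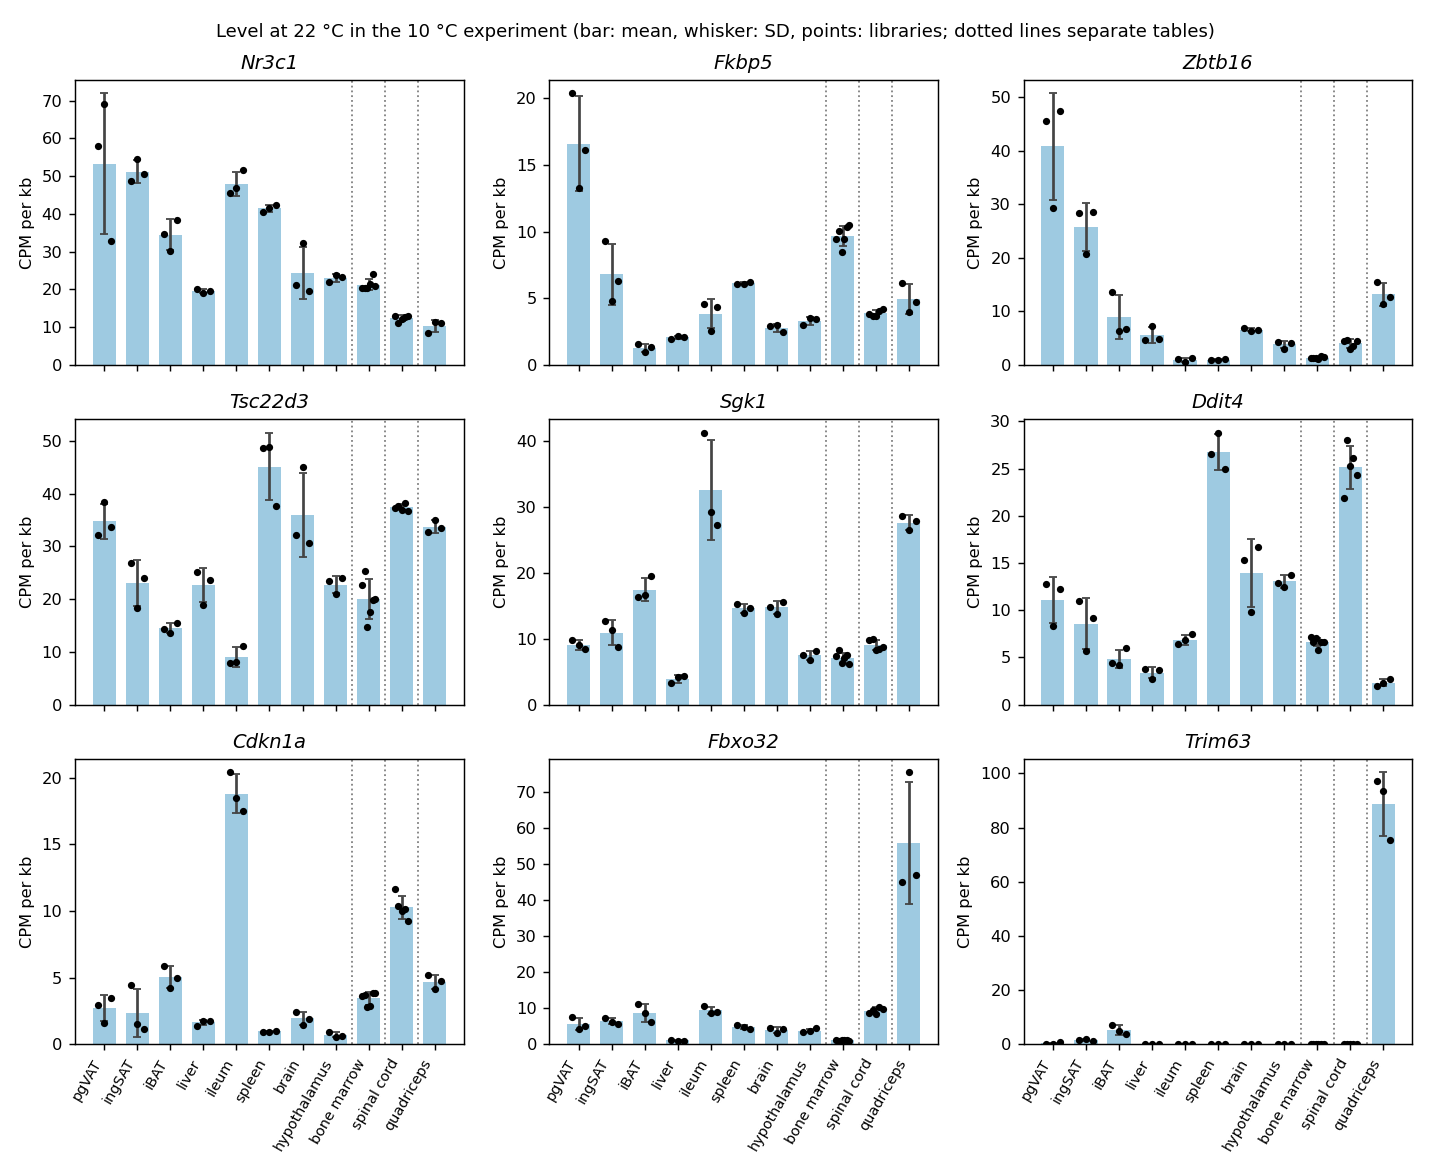
Level of each gene in the 22 °C libraries of the cold experiment, in CPM per kb of exon on a linear axis that starts at 0. Bars are means, whiskers SD, points single libraries, and dotted lines separate tables that were normalized apart: Trim63 and Fbxo32 stand highest in quadriceps, Zbtb16 and Fkbp5 in pgVAT, Sgk1 and Cdkn1a in ileum.

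Neighbours in these orders often overlapped. In the table of 8 tissues, 3 of the 7 neighbouring pairs overlapped for Zbtb16 and for Fkbp5, and 6 of 7 for Fbxo32. The order also moved with the scaling: with TMM factors computed over the whole table, the highest tissue became liver for Tsc22d3, iBAT for Fbxo32 and ileum for Nr3c1. Levels also differed between the experiments. Cdkn1a in ileum at 22 °C was 494 ± 14.05 CPM (SD, n = 3) in the warm experiment and 66.8 ± 5.21 CPM (n = 3) in the cold experiment. These tables differ in kit, site, supplier and age, which cannot be told apart.

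A gene was called changed at an unadjusted p of at most 0.05 in edgeR's quasi-likelihood test with a fold above 1.5, and the Benjamini-Hochberg adjusted p over all genes of that tissue is given beside it. At 10 °C, 91 of 99 gene and tissue pairs were expressed enough to be tested and 9 were called (9.89%), 2 higher and 7 lower (1 and 9 with library size as the only scaling). Over all genes of the same comparisons, 4.98% were called (2.27% higher and 2.71% lower). At 34 °C, 41 of 45 pairs were tested and 7 were called (17.1%), 5 higher and 2 lower, against 5.31% over all genes (3.13% higher and 2.18% lower). Because the genes were chosen with these contrasts known, nothing is read from the distance between these shares. An adjusted p under 0.05 was reached by 2 pairs at 10 °C and 1 pair at 34 °C, against 3.27% and 5.79% of all gene tests. The groups did not overlap in 7 of the 9 calls at 10 °C and in 2 of the 7 at 34 °C. Over all genes, groups did not overlap in 17.3% of the tests at 10 °C and 18.8% at 34 °C. All 8 pairs not tested at 10 °C were Trim63. At 34 °C they were Trim63 in liver, ileum and brain, and Cdkn1a in liver (0.447 to 1.13 CPM).

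**Figure D2:**
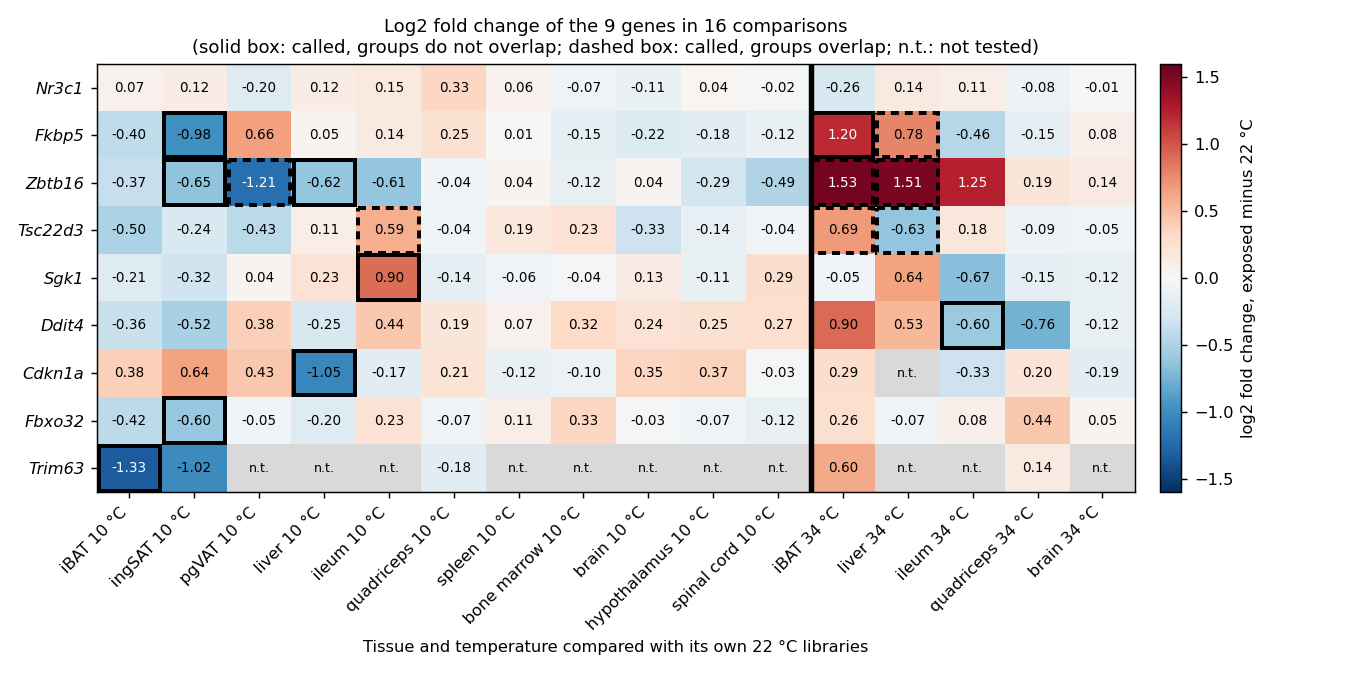
Log2 fold change (exposed minus 22 °C) of each gene in each comparison, blue for lower and red for higher, with the value printed. Solid boxes mark calls whose groups do not overlap and dashed boxes calls whose groups overlap: calls at 10 °C sit in the fat depots, liver and ileum, and calls at 34 °C in iBAT, liver and ileum.

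The calls sat in fat, liver and ileum. The median log2FC of the members was -0.52 in ingSAT and -0.37 in iBAT at 10 °C and 0.60 in iBAT at 34 °C, where all 9 were tested, against -0.01, -0.02 and 0.02 for all genes. In quadriceps, where all 9 were also tested, it was -0.04 at 10 °C and -0.08 at 34 °C. The 0.60 was the value of Trim63, which was high and low with the muscle markers in iBAT, as given below. The genes were chosen with these changes known, so nothing is read from the distance to all genes. At 10 °C, 3 of 9 genes were called lower in ingSAT, where 16.3% of all genes were called and 9.14% called lower. Called lower were also 1 of 9 in iBAT (all genes 13.2%, lower 7.24%), 1 of 8 in pgVAT (7.94%, lower 3.47%) and 2 of 8 in liver (3.28%, lower 2.54%). In ileum 2 of 8 were called higher (2.71%, higher 1.44%). At 34 °C, 3 of 9 were called higher in iBAT (19.4%, higher 12.2%), 2 of 7 higher and 1 lower in liver (3.38%, higher 1.77% and lower 1.61%), and 1 of 8 lower in ileum (2.83%, lower 1.26%). No member was called by edgeR's quasi-likelihood test in quadriceps at 10 °C (3.83% of all genes) or 34 °C (1.21%), spleen (2.68%), bone marrow (1.29%), hypothalamus (0.578%), spinal cord (0.271%), or brain at 10 °C (2.72%) or 34 °C (0.193%). With the fold limit left aside, an unadjusted p of at most 0.05 was reached by 3 members in bone marrow, 2 each in hypothalamus and spinal cord, 1 in quadriceps at each temperature, and 0 in spleen and in both brain comparisons. The shares of all genes given above hold with the fold limit only and cannot be set against these counts, from which nothing is read. DESeq2 also called 0 members in each of these 8 comparisons. The quadriceps counts depend on the controls: with the other 3 of the 6 quadriceps 22 °C libraries at 10 °C, calls over all tissues rose from 9 to 13 (4 higher and 9 lower). Those libraries were taken as controls of the warm experiment, with mice of another supplier. The share of all genes called with them is not given here, so nothing about the members is read from the rise. In brain at 10 °C, leaving out the 22 °C library with hepatocyte transcripts moved Tsc22d3 from -0.33 to -0.14 and Nr3c1 from -0.11 to 0.14 (log2FC), and no member was called either way.

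Genes of the circadian clock moved in the same fat depots. Of 9 clock genes, 2 were called higher and 5 lower in ingSAT at 10 °C (16.3% of all genes called). In iBAT 3 were called higher and 5 lower (13.2%), and in pgVAT 2 higher and 5 lower (7.94%). Among them was Nr1d1, a clock repressor, in ingSAT (94.6 ± 8.39 to 30.01 ± 13.5 CPM, log2FC -1.66, adjusted p = 0.0273, edgeR's quasi-likelihood test). In iBAT at 34 °C 1 of 8 was called higher (19.4% of all genes called, 12.2% higher). Glucocorticoid levels follow the day, and the part of the clock genes in the results for the 9 genes was not tested.

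Brown adipocyte markers also moved in ingSAT. Their sum over 5 genes, none at 0 in any library, ran from 83.6 to 135.9 CPM at 22 °C and from 1952 to 2551 CPM at 10 °C, and all 5 were called higher, among them Ucp1, the uncoupling protein of brown fat (8.30 ± 6.66 to 1330.4 ± 240.5 CPM). In iBAT the sum was 7138 to 11865 CPM at 22 °C and 13057 to 16847 CPM at 10 °C, and in the warm experiment 9683 to 12704 CPM at 22 °C and 4640.0 to 6020.0 CPM at 34 °C. The sums of the groups did not overlap in either experiment, but the markers did not all move alike in iBAT. At 10 °C Ucp1, Elovl3 and Cox7a1 were called higher, Ppargc1a was called lower (log2FC -0.91) and Cidea was not called (-0.04). At 34 °C Ucp1, Elovl3 and Ppargc1a were called lower, and Cidea (-0.08) and Cox7a1 (-0.15) were not called. The part of these marker changes in the results for the 9 genes was not tested.

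Nr3c1 was not called in any tissue. Its log2FC ran from -0.20 to 0.33 at 10 °C and from -0.26 to 0.14 at 34 °C. The most positive value was in quadriceps at 10 °C, where the 10 °C libraries read 97.7, 98.4 and 105 CPM against 65.7, 87.1 and 86.3 CPM at 22 °C. These groups did not overlap, but the difference missed the limits (log2FC 0.33 ± 0.13 SE, adjusted p = 0.451, edgeR's quasi-likelihood test). Fat transcripts were also higher in quadriceps at 10 °C. The 5 adipocyte markers were each called higher with overlapping groups (3.83% of all genes called), among them Fabp4 (165 ± 39.7 to 431 ± 197 CPM). Ucp1 went from 0.167 ± 0.198 to 81.0 ± 48.0 CPM. The part of these transcripts in the Nr3c1 value was not tested. In pgVAT the receptor varied most between libraries of a group, at 288, 589 and 193 CPM at 10 °C and 446, 531 and 252 CPM at 22 °C.

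Fkbp5 (chr17:28399094-28517527, minus strand, GRCm38), the FK506 binding protein that holds the receptor in a low-affinity state and is itself induced by it, fell in ingSAT at 10 °C. In this bulk RNA, fewer cells of a type and less RNA per cell cannot be told apart. The 10 °C libraries read 31.2, 33.05 and 33.5 CPM, and the 22 °C libraries 87.9, 45.2 and 59.8 CPM. All 10 °C libraries lay below all 22 °C libraries, and the 10 °C values were far closer to each other than the controls were. The log2FC was -0.98 ± 0.23 (SE), with an adjusted p of 0.0524 in edgeR's quasi-likelihood test, and the call stood without any library in turn. In pgVAT the same gene read 176, 172 and 396 CPM at 10 °C against 193, 126 and 152 CPM at 22 °C, and was not called (log2FC 0.66 ± 0.40). There 10 °C library 3 stood far above the other libraries. The 5 epididymis markers summed to 10780, 1.83 and 8717 CPM in 10 °C libraries 1, 2 and 3, and their part in this value was not tested.

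At 34 °C Fkbp5 was called higher in iBAT, the only member there with an adjusted p under 0.05. The 34 °C libraries read 12.4, 16.1 and 28.5 CPM against 6.92, 12.2 and 5.80 CPM at 22 °C. The groups were separate but adjoined, 12.2 CPM below 12.4 CPM (log2FC 1.20 ± 0.38, adjusted p = 0.0496, edgeR's quasi-likelihood test). In liver it read 53.3, 34.6 and 82.7 CPM at 34 °C against 39.1, 28.5 and 31.4 CPM at 22 °C and was called with overlapping groups (log2FC 0.78 ± 0.27, adjusted p = 0.329). The iBAT call was lost without 34 °C library 3 (log2FC 0.77), and the liver call without 34 °C library 3 (0.41) or 22 °C library 2 (0.69) or 3 (0.75). In ileum it pointed down without a call (log2FC -0.46 ± 0.30), and in quadriceps and brain it moved by -0.15 ± 0.23 and 0.08 ± 0.10.

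Zbtb16 (chr9:48654297-48836222, minus strand) was the member called most often, lower in 3 tissues at 10 °C and higher in 2 at 34 °C. In ingSAT the 10 °C libraries read 84.7, 89.9 and 87.2 CPM and the 22 °C libraries 149.8, 109 and 151 CPM. The groups did not overlap, and the log2FC was -0.65 ± 0.15 (adjusted p = 0.0461, edgeR's quasi-likelihood test). It slipped under the fold limit without 22 °C library 1 (-0.58) or 3 (-0.55). In liver the 10 °C libraries read 18.2, 21.2 and 17.96 CPM against 24.3, 38.4 and 25.3 CPM. Again all cold libraries were lower (log2FC -0.62 ± 0.17, adjusted p = 0.130). That call was lost without 22 °C library 2 (-0.38) or cold library 1 (-0.58) or 3 (-0.57). In pgVAT 2 of the 3 cold libraries were low, at 59.6 and 50.7 CPM, while the third read 169 CPM, inside the 22 °C range of 155 to 251 CPM (log2FC -1.21 ± 0.51, adjusted p = 0.593). In spinal cord the gene ran lower in the cold without passing the fold limit, at 13.7 to 17.9 CPM (median 14.8, n = 5) against 15.5 to 24.9 CPM at 22 °C (n = 5; log2FC -0.49 ± 0.13, adjusted p = 0.780).

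**Figure D3:**
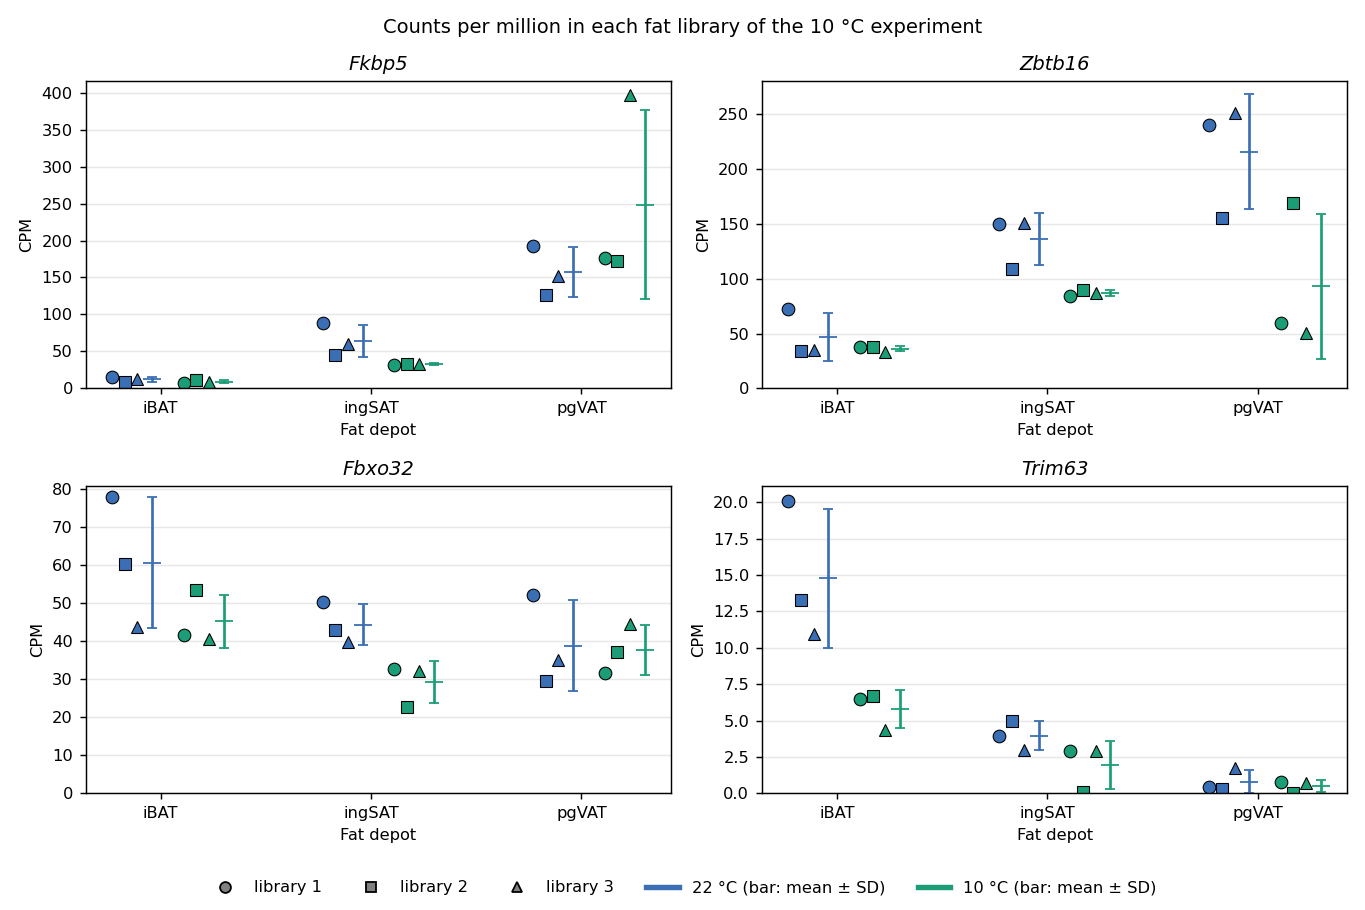
CPM of Fkbp5, Zbtb16, Fbxo32 and Trim63 in each fat library of the cold experiment, on linear axes that start at 0. Points are libraries (symbol by number), short bars with whiskers are mean ± SD: in ingSAT all 10 °C libraries lie below all 22 °C libraries for all 4 genes, and in pgVAT the 10 °C library 2 stands apart for Zbtb16.

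Among the 10 °C pgVAT libraries, the ones low in Zbtb16 were those with many epididymal transcripts. The 22 °C libraries also held such transcripts, at lower sums than these, with Zbtb16 at 155 to 251 CPM. The 5 epididymis markers summed to 10780 CPM and 8717 CPM in 10 °C libraries 1 and 3 and to 1.83 CPM in library 2, and to 325 to 2516 CPM at 22 °C. All 5 markers were detected in some of these libraries, and at most 1 was at 0 in any of them. Their part in the Zbtb16 result was not tested. Without 10 °C library 2 the log2FC was -1.98 and the call stood. It was lost without 10 °C library 1 (-0.97) or 3 (-0.91) and without 22 °C library 1 (-1.12), 2 (-1.41) or 3 (-1.08).

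At 34 °C the Zbtb16 calls came with 1 library far above the others. In iBAT the 34 °C libraries read 19.04, 18.6 and 77.9 CPM against 19.5, 14.5 and 6.13 CPM at 22 °C. In liver they read 6.52, 8.05 and 41.0 CPM against 6.56, 6.05 and 6.83 CPM. In both tissues library 3 stood alone, 4.14 and 5.62 times the mean of the other 34 °C libraries, and those lay within or just above the control range. With all libraries the log2FC was 1.53 ± 0.65 in iBAT (adjusted p = 0.112, edgeR's quasi-likelihood test) and 1.51 ± 0.62 in liver (adjusted p = 0.413). Without library 3 it was 0.48 in iBAT and 0.17 in liver, and neither was called. The iBAT call was also lost without 22 °C library 2 (1.597) or 3 (1.18), the liver call without 22 °C library 1 (1.52), 2 (1.46) or 3 (1.55), and both with DESeq2 (1.52 in each).

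That library number was the highest 34 °C library in all 5 tissues for Zbtb16, Fkbp5, Tsc22d3 and Ddit4, that is 4 of the 9 genes. Of the 9686 genes tested in all 5 tissues, 75 (0.774%) had this pattern. The share was 0.516% for library number 1 and 0.403% for library number 2, with no member in either. The members were selected on changes that include these libraries, so nothing is read from the distance between these shares. Of 18 other glucocorticoid targets tested in all 5 tissues, only the clock gene Per1 had the pattern of library number 3. Library 3 was also highest for Sgk1 in 3 tissues, for Nr3c1 in 2, for Cdkn1a in 1, and for Fbxo32 and Trim63 in 0. Among the 22 °C libraries of the same experiment, number 3 was highest in all 5 tissues for Cdkn1a, a pattern of 0.65% of all genes.

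**Figure D4:**
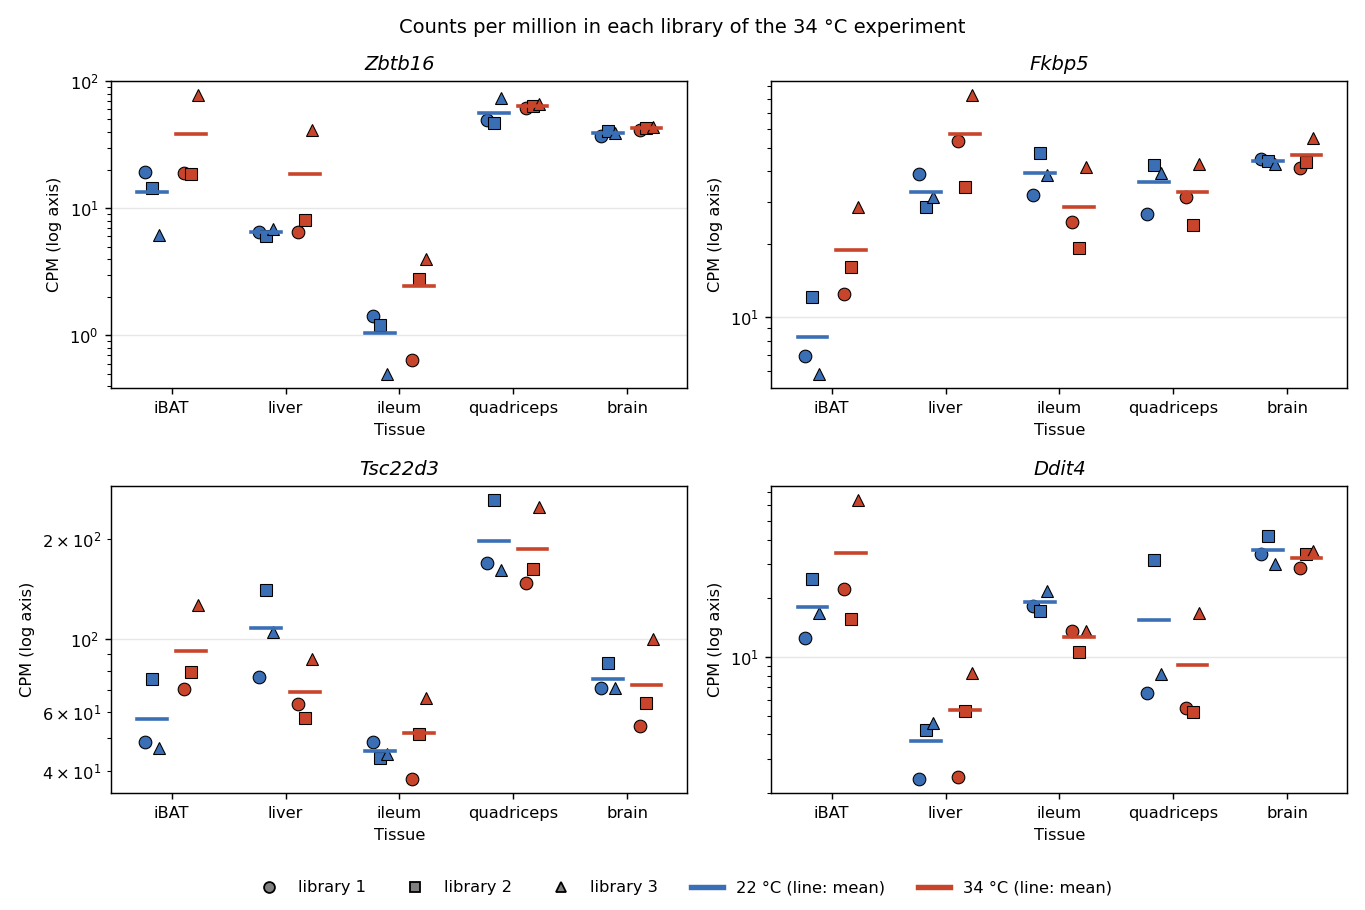
CPM of Zbtb16, Fkbp5, Tsc22d3 and Ddit4 in each library of the warm experiment, on log axes. Blue is 22 °C and red 34 °C, lines are means, and symbols give the library number: the red triangle (34 °C library 3) is the highest red point in every tissue of all 4 panels, reaching 77.9 CPM for Zbtb16 in iBAT.

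The size of the step differed by tissue and gene. For Fkbp5, library 3 was 1.998 times the mean of the other 34 °C libraries in iBAT, 1.90 in ileum, 1.88 in liver, 1.54 in quadriceps and 1.30 in brain. For Tsc22d3 the ratio lay between 1.43 (liver) and 1.68 (brain and iBAT), and for Ddit4 between 1.12 and 3.37. For Zbtb16 it was 1.04 in brain and 1.05 in quadriceps, so a step was present there in rank only. The labels do not say that library 3 of each tissue came from the same mice, and the cause of the pattern was not tested.

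Leaving 34 °C library 3 out of all 5 tissues changed which members were called. The calls fell from 7 to 5, with 1 higher and 4 lower. The 5 calls higher in iBAT and liver were lost, with Fkbp5 at 0.77 in iBAT and 0.41 in liver on the log2 scale. Called without it in liver were Sgk1 higher (log2FC 0.95, adjusted p = 0.107, edgeR's quasi-likelihood test) and Tsc22d3 lower (-0.83, adjusted p = 0.233, same test). Called lower in ileum were Fkbp5 (-0.85), Sgk1 (-1.14) and Ddit4 (-0.67), each with an adjusted p of 0.769 in the same test. This alternative was chosen after the values were seen. The share of all genes called in these smaller fits is not given here, so nothing about the members is read from the change in counts.

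Tsc22d3 encodes GILZ, a leucine zipper protein through which glucocorticoids dampen inflammation. In ileum at 10 °C it read 46.0, 71.3 and 59.3 CPM against 34.1, 34.7 and 48.5 CPM at 22 °C, called higher with overlapping groups (log2FC 0.59 ± 0.19, adjusted p = 0.208, edgeR's quasi-likelihood test), a call lost with DESeq2 (0.58), with library size as the only scaling (0.53), and without cold library 2 (0.42) or 3 (0.58) or 22 °C library 1 (0.50) or 2 (0.51). In iBAT it ran the other way, at 40.8, 53.8 and 39.1 CPM in the cold against 62.2, 59.2 and 67.5 CPM. There the groups did not overlap and the fold limit was missed (log2FC -0.50 ± 0.14, adjusted p = 0.0517). At 34 °C it was called higher in iBAT, at 70.5, 79.4 and 126 CPM against 48.8, 75.7 and 46.7 CPM (log2FC 0.69 ± 0.26, adjusted p = 0.0877), and lower in liver, at 63.4, 57.7 and 86.5 CPM against 76.8, 140.5 and 105 CPM (log2FC -0.63 ± 0.22, adjusted p = 0.329). Groups overlapped in both. The iBAT call was lost without 34 °C library 3 (0.38) or 22 °C library 1 (0.58) or 3 (0.56), and the liver call without 22 °C library 2 (-0.39) or 34 °C library 1 (-0.58) or 2 (-0.52).

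Sgk1, a kinase that glucocorticoids and mineralocorticoids induce and that promotes sodium uptake in epithelia, was called in ileum at 10 °C. Its cold libraries read 244, 412 and 235 CPM and its 22 °C libraries 202, 143 and 134 CPM. All cold libraries were higher, library 2 most of all (log2FC 0.90 ± 0.25, adjusted p = 0.162, edgeR's quasi-likelihood test). Without cold library 2 the log2FC was 0.58 and the call was lost. In ileum of the warm experiment Sgk1 spread widely in both groups, at 105, 149 and 272 CPM at 34 °C and 156, 397 and 280.1 CPM at 22 °C, and was not called (log2FC -0.67 ± 0.44). In liver at 34 °C it read 17.6, 27.6 and 9.39 CPM against 11.2 to 12.2 CPM, so library 3, the highest for Zbtb16 and Fkbp5, was the lowest for Sgk1. It was not called there by edgeR's quasi-likelihood test (log2FC 0.64 ± 0.31) and was called by DESeq2 (0.64).

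Ddit4 (REDD1, chr10:59949669-59951834, minus strand) inhibits the growth kinase complex mTORC1 and responds to glucocorticoids and stress. In ileum it pointed in opposite directions in the 2 experiments. At 34 °C it read 13.7, 10.7 and 13.7 CPM against 18.3, 17.3 and 21.9 CPM and was called lower without overlap (log2FC -0.60 ± 0.15, adjusted p = 0.594, edgeR's quasi-likelihood test), a call lost without 34 °C library 2 (-0.49) or 22 °C library 3 (-0.50). At 10 °C it read 15.5, 16.3 and 17.2 CPM against 11.2, 11.9 and 13.03 CPM, also without overlap, but below the fold limit (log2FC 0.44 ± 0.10, adjusted p = 0.132). The difference between the experiments was not tested, because they sit in separate tables. In quadriceps Ddit4 was unstable among controls, at 6.56, 31.5 and 8.13 CPM in the 22 °C libraries of the warm experiment, and was not called (log2FC -0.76 ± 0.66).

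Cdkn1a (chr17:29090976-29100727, plus strand) encodes p21, an inhibitor of cyclin-dependent kinases that p53, FOXO factors and glucocorticoids induce. It was called in liver at 10 °C, with 2.46, 3.73 and 2.22 CPM against 4.88, 6.26 and 6.17 CPM at 22 °C. All cold libraries were lower and the call stood without any library in turn (log2FC -1.05 ± 0.22, adjusted p = 0.0958, edgeR's quasi-likelihood test). In ileum at 34 °C, where its level was highest, it read 424, 316 and 441 CPM against 488, 484 and 509.9 CPM, without overlap and without a call (log2FC -0.33 ± 0.14, adjusted p = 0.594). In ingSAT 22 °C library 1 read 15.7 CPM while the other 22 °C libraries read 5.25 and 4.15 CPM, and the cold group (11.5 to 14.1 CPM) lay between.

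Fbxo32 (chr15:58175879-58214932, minus strand) and Trim63, the ubiquitin ligases that mark muscle atrophy, were not called in muscle. In quadriceps Fbxo32 read 389, 373 and 351 CPM at 10 °C against 314, 525.7 and 327 CPM (log2FC -0.07 ± 0.21), and 580.4, 442 and 389.5 CPM at 34 °C against 358, 284 and 402 CPM (log2FC 0.44 ± 0.18, adjusted p = 1, edgeR's quasi-likelihood test). Trim63 there ran from 214 to 276 CPM over both groups of the cold experiment and from 233 to 323 CPM over those of the warm one, with log2FC of -0.18 ± 0.13 and 0.14 ± 0.14. In fat both were called, each in a different depot. Fbxo32 fell in ingSAT at 10 °C, to 32.7, 22.8 and 32.3 CPM from 50.4, 42.9 and 39.7 CPM, without overlap (log2FC -0.60 ± 0.18, adjusted p = 0.0829). It was lost without cold library 2 (-0.42) or 22 °C library 1 (-0.50). The 7 skeletal muscle markers summed to 1292, 27.4 and 1763 CPM in these cold libraries and to 2943, 2914 and 1163 CPM at 22 °C, with the lowest sum in cold library 2 and the highest in 22 °C library 1, which were also the lowest and the highest in Fbxo32. The part of the muscle transcripts in the Fbxo32 result was not tested.

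Trim63 fell in iBAT at 10 °C, with the lowest adjusted p of any member. The cold libraries read 6.48, 6.66 and 4.33 CPM and the 22 °C libraries 20.1, 13.3 and 10.9 CPM. The groups did not overlap (log2FC -1.33 ± 0.26, adjusted p = 0.0134, edgeR's quasi-likelihood test), and the call stood without any library in turn. The 7 skeletal muscle markers moved with it, summing to 4629, 5111 and 2449 CPM in the cold libraries and to 8970, 6586 and 6281 CPM at 22 °C, with none of the 7 at 0 in any library. Per 1000 CPM of these markers Trim63 was 1.49 ± 0.244 CPM at 10 °C and 2.001 ± 0.253 CPM at 22 °C (SD, n = 3 each), with ranges of 1.30 to 1.77 and 1.74 to 2.24 that overlapped. The part of the muscle transcripts in the Trim63 result was not tested.

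Trim63 and the muscle markers were high and low in the same libraries elsewhere in iBAT and ingSAT. In iBAT of the warm experiment, 22 °C libraries 1 and 3 held 2.91 and 8.76 CPM of muscle markers and 0 and 0.0274 CPM of Trim63, while library 2 held 4707 CPM of markers and 7.22 CPM of Trim63. In ingSAT, 10 °C library 2 held 27.4 CPM of markers and 0.0720 CPM of Trim63, against 1163 to 2943 CPM and 2.89 to 4.97 CPM in the other ingSAT libraries. In quadriceps the ratio was between 0.949 and 1.80 CPM of Trim63 per 1000 CPM of markers, against 1.30 to 3.125 in iBAT and ingSAT libraries that had at least 1 count of Trim63. In pgVAT, with 0 to 16 counts of Trim63 a library, it ran from 0 to 47.5. For Fbxo32 the ratio reached 832 in ingSAT and 4354 in iBAT libraries with few muscle markers, against at most 3.24 in quadriceps.

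**Figure D5:**
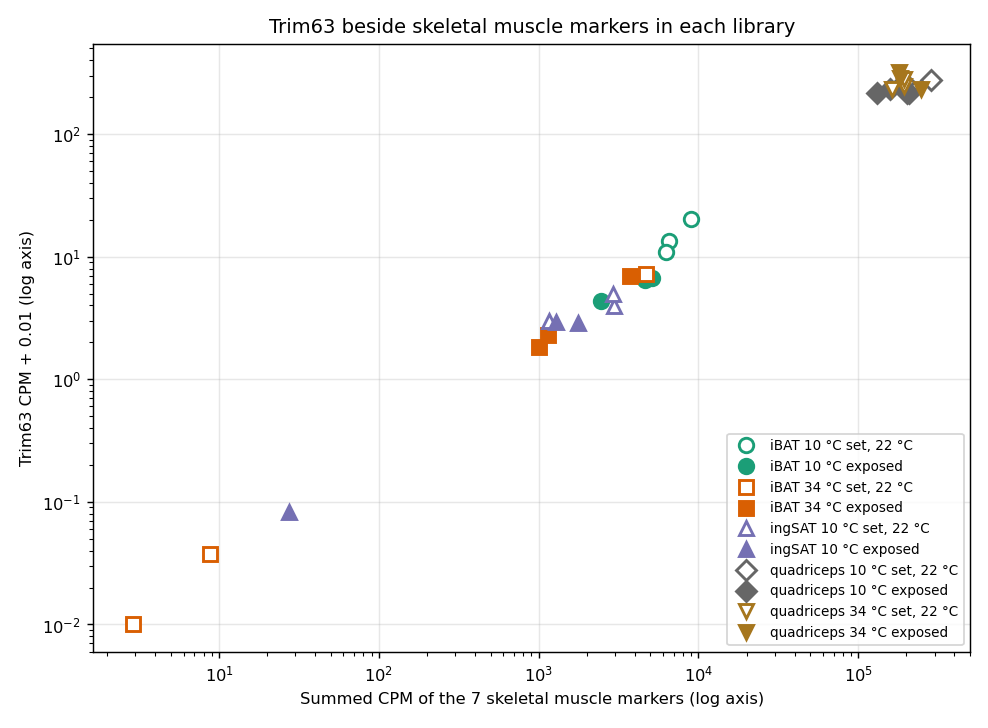
Trim63 (CPM + 0.01) against the summed CPM of 7 skeletal muscle markers in each iBAT, ingSAT and quadriceps library, on log axes, open symbols at 22 °C and filled symbols at 10 or 34 °C. The points lie along one band from 2.91 CPM of markers with Trim63 at 0 up to the quadriceps libraries. The 10 °C iBAT libraries lie below the 22 °C iBAT libraries of the cold experiment on both axes. The 22 °C iBAT libraries 1 and 3 of the warm experiment lie lower still.

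The spread of a gene's temperature change over tissues was described with an interaction fit in each of the larger tables. The genes were selected on these same changes, so the values are a description and no independent evidence that tissues differ. Over the 8 tissues of the cold experiment, Fkbp5 was the only member under 0.05 (adjusted p = 0.0250, edgeR's quasi-likelihood test). Its log2FC ran from -0.98 in ingSAT to 0.66 in pgVAT, where it was not called and 1 cold library stood far above the others. Over all genes 16.1% passed. Tsc22d3 came next (adjusted p = 0.0739), and passed with library size as the only scaling (0.0320). Over the 5 tissues at 34 °C no member passed, against 12.8% of all genes. Fkbp5 was again lowest (adjusted p = 0.0835), and both it and Tsc22d3 passed with library size only (0.0245 and 0.0436). Of the 9 members there, 1 had an unadjusted p under 0.05, and no interaction test was run with DESeq2. In quadriceps, the tissue with both temperatures in 1 table, the 34 °C change minus the 10 °C change lay between -0.94 and 0.51 (log2) for the 9 genes. No member passed (lowest adjusted p = 0.334, with 1 member at an unadjusted p under 0.05), and 0.482% of all genes did. Set against each other directly, with all 6 quadriceps 22 °C libraries in 1 group, 34 °C minus 10 °C ran from -0.83 to 0.96. There 4 members had an unadjusted p under 0.05 (lowest adjusted p = 0.109, edgeR's quasi-likelihood test). This direct contrast does not set each temperature against its own 22 °C libraries. The mice at 34 °C and 10 °C differed in supplier and duration, which cannot be told apart from temperature here. The share of all genes for this contrast is not given, so nothing about the members is read from it.

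Related genes of the same pathways were counted in the same fits. They were listed with earlier results of these data known. Of 22 further glucocorticoid targets (21 in the table of 8 tissues), 39 of 224 gene and tissue tests at 10 °C were called, 11 higher and 28 lower, and 14 of 102 at 34 °C, 7 in each direction, against 4.98% and 5.31% over all genes. With library size as the only scaling the split at 34 °C was 12 higher and 6 lower. In ingSAT at 10 °C, 1 of 20 targets was called higher and 7 lower (16.3% of all genes called, 9.14% lower). The median log2FC of the targets was -0.49 against -0.01 for all genes. Among them Mt2, a metallothionein, fell from 15.3 ± 4.01 to 3.20 ± 1.21 CPM (log2FC -2.26), and Pck1, the gluconeogenic and glyceroneogenic carboxykinase, fell from 3568 ± 611 to 1427 ± 20.3 CPM (log2FC -1.32). Pdk4, a kinase that spares glucose by blocking pyruvate dehydrogenase, rose there from 106 ± 17.005 to 358 ± 48.6 CPM (log2FC 1.76).

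In iBAT the targets also moved both ways, with 2 of 19 called higher and 6 lower at 10 °C (13.2% of all genes called, 7.24% lower). Dusp1, a phosphatase of MAP kinases, fell from 87.6 ± 19.4 to 38.2 ± 3.39 CPM (log2FC -1.20), Bcl6, a transcriptional repressor, by 1.11 on the log2 scale, and Glul, glutamine synthetase, rose from 1917 ± 349 to 3932 ± 909 CPM (log2FC 1.04). Angptl4, an inhibitor of lipoprotein lipase, had opposite signs, at -0.92 in the cold (428 ± 51.0 to 226 ± 35.3 CPM) and 1.16 at 34 °C (463 ± 83.2 to 1035 ± 286 CPM). Their median log2FC was -0.27 against -0.02 for all genes. At 34 °C 3 of 21 targets were called higher in iBAT and 2 lower (19.4% of all genes called, 12.2% higher). The median there was 0.25 against 0.02. Zfp36, which destabilises inflammatory mRNAs, was at 1.56 and Pck1 at -0.69. Lcn2, an iron-sequestering protein of neutrophils, fell in spleen (log2FC -2.65) and bone marrow (-0.49) at 10 °C. The 5 neutrophil lineage markers, none at 0 in any library, were lower in the same tissues, from 134 to 248 CPM in sum at 22 °C to 22.8 to 37.2 CPM in spleen and from 18152 to 25606 CPM to 16921 to 17728 CPM in bone marrow, and their part in the Lcn2 result was not tested. Dusp1 rose in liver at 34 °C (0.94, adjusted p = 0.0339, edgeR's quasi-likelihood test). Each related gene named here and below had an adjusted p under 0.05 and groups that did not overlap, and in bone marrow the folds were under 1.5.

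Genes that set local glucocorticoid action gave 10 calls in 105 tests at 10 °C (8 higher and 2 lower, or 5 and 3 with library size only). At 34 °C they gave 5 in 47 (1 higher and 4 lower, or 2 and 4). Over all genes 4.98% and 5.31% were called. Hsd11b1, the enzyme that regenerates active corticosterone in cells, fell in iBAT at 34 °C from 229 ± 58.6 to 95.2 ± 27.3 CPM (log2FC -1.27) and in bone marrow at 10 °C from 78.3 ± 10.1 to 54.1 ± 2.08 CPM (log2FC -0.53). H6pd, which feeds it with NADPH, fell in ingSAT (-0.92) and bone marrow (-0.26) at 10 °C. The receptor chaperone Hsp90aa1 fell in iBAT at 34 °C (-1.003) and rose in ingSAT at 10 °C (0.95), and the co-chaperone Fkbp4 rose in iBAT at 10 °C (0.76).

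For the remaining lists the shares called over all genes were again 4.98% at 10 °C and 5.31% at 34 °C. FOXO factors and targets gave, at a share near these, 13 calls in 195 tests at 10 °C (5 higher and 8 lower, or 3 and 12 with library size only) and 5 in 89 at 34 °C (3 higher and 2 lower, or 5 and 1). Irs2, an insulin receptor substrate that FOXO induces, fell in iBAT at 10 °C from 181 ± 73.9 to 44.2 ± 29.7 CPM (log2FC -2.04) and in ingSAT (-1.30). Sod2, mitochondrial superoxide dismutase, rose in both (0.60 and 1.1005). At 34 °C in iBAT Gadd45a, a growth arrest gene, rose from 2.77 ± 0.386 to 13.1 ± 4.999 CPM (log2FC 2.24) and Cat, catalase, fell (-0.76). Atrophy and proteolysis genes gave 6 calls in 85 tests at 10 °C, all lower, and by edgeR's quasi-likelihood test 0 in 39 at 34 °C (0 with DESeq2, and 3 at an unadjusted p of at most 0.05). They included the F-box gene Fbxo21 in iBAT (-1.10) and ingSAT (-1.26), and Trim54, a muscle relative of Trim63, in iBAT (-0.95), where the muscle markers were lower as given above. Targets of p53 gave 9 calls in 74 tests at 10 °C (5 higher and 4 lower) and 1 in 31 at 34 °C, Eda2r in iBAT (1.999), a receptor of the tumour necrosis factor family.

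Covariation inside groups used only the spread between libraries of a group. In the tissues with 1 mouse per library (12 mice in bone marrow, 10 in spinal cord), Fkbp5 was set against each of the other 8 members, 16 relations in all, and none passed after Benjamini-Hochberg adjustment (permutation test with 100000 resamples, two-sided, lowest adjusted p = 0.288 for Pearson's r and 0.246 for Spearman's rho). The largest r was with Trim63 in spinal cord, a gene with 1 to 11 counts a library there (r = 0.64, rho = 0.62, adjusted permutation p = 0.288 and 0.303), and it was 0.53 without the 2 mice farthest from the median. In bone marrow the largest was with Cdkn1a (r = 0.63, rho = 0.60, adjusted permutation p = 0.288 and 0.303), at 0.50 without 2 such mice, 0.87 within the 22 °C mice and -0.19 within the 10 °C mice. As a description over the group-centred values of all 106 libraries, which share depth and table, r was 0.56 for Tsc22d3 with Ddit4, 0.41 for Zbtb16 with Tsc22d3, 0.40 for Zbtb16 with Fkbp5 and for Fkbp5 with Ddit4, and 0.37 for Fkbp5 with Tsc22d3.

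Other genes had log2FC patterns across the 16 comparisons close to those of Zbtb16 and Fkbp5. Among 12335 genes, Pearson's r with Zbtb16 was highest for Kif26a (0.90), Mapre2 (0.90), Synpo2 (0.89), Inpp4a (0.88) and Rtn1 (0.88). For Fkbp5 it was highest for Ptprj (0.92), Vsig10 (0.91), Tnfrsf21 (0.90), Golgb1 (0.90) and Renbp (0.90). These values describe 16 points that are comparisons and not replicates. Without iBAT and liver at 34 °C, the r of Kif26a was 0.87 (rank 10) and that of Ptprj 0.85 (rank 14). For Zbtb16 it was then 0.84 for Synpo2 (rank 25), 0.83 for Mapre2 (rank 32), 0.80 for Inpp4a (rank 62) and 0.77 for Rtn1 (rank 116). For Fkbp5 it was 0.87 for Golgb1 (rank 7), 0.83 for Vsig10 (rank 22), 0.83 for Renbp (rank 27) and 0.81 for Tnfrsf21 (rank 38).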

How the data were processed

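Raw read counts per gene were deposited by the authors in 4 tables: 8 tissues of the cold experiment, the 34 °C tissues with quadriceps of both experiments, bone marrow, and spinal cord. Per the labels, reads were handled with STAR 2.5.3a, Picard 1.141 and HTSeq 0.6p1 on mm10. Libraries were grouped by their labels. The quadriceps 22 °C controls of the cold experiment were the 3 libraries whose mean matched the authors' 22 °C group mean (1999 of 1999 genes, against 59 for the other 3). The other 3 were taken as controls of the warm experiment, with no such match of their own. The spinal cord 22 °C library numbered 6 was matched to its group only. Ensembl IDs of the 8-tissue table gained a symbol for 21583 of 21647 rows (GENCODE M21).

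A separate fit was made for each tissue in edgeR 4.0.16 (R 4.3.3, limma 3.58.1; TMM factors, genes with an average log2 CPM above 0, quasi-likelihood test, two-sided, Benjamini-Hochberg adjustment over all genes of the comparison). CPM values use the same factors, and log2FC is exposed minus 22 °C as given by edgeR's fit. A prior count of 2 was used only for the log2 values behind the covariation and the likeness to Zbtb16 and Fkbp5. Calls used the limits of the study's methods, an unadjusted p of at most 0.05 with a fold above 1.5. DESeq2 1.42.0, edgeR's exact test, other filters and scalings, a replicate block and leaving out each library were alternatives. Interaction fits covered all libraries of a table. The scripts were tested on simulated data. Downstream steps used Python 3.11.15, pandas 2.3.3, numpy 2.4.6, scipy 1.17.1 and matplotlib 3.10.9.

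The 9 genes and the related lists were chosen with earlier results of these data known. The genes named are the 9, list genes whose groups are separate and whose adjusted p is under 0.05 (at most 4 per list and comparison by size of change), and the 5 most like Zbtb16 and Fkbp5 among genes above the filter in at least 8 comparisons. Nr1d1 was named after its values were seen. No pair of libraries was identical (0 of 143 pairs). Most libraries are pools, so p-values measure the spread between pools.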

Additional observations from a re-analysis of the deposited data

Results flagged for a closer look

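A gap test on the 36 groups of 4 to 10 libraries of the 9 genes marked 2 groups, with about 1 in 20 marked by chance. Nr3c1 in bone marrow at 22 °C had 1 library (number 5) at 185 CPM, and the other 5 lay between 156 and 164 CPM. Nr3c1 in spinal cord at 10 °C had 1 library (number 4) at 77.5 CPM, and the others lay between 96.3 and 99.7 CPM. The temperature change of Fkbp5 ran from a log2FC of -0.98 in ingSAT to 0.66 in pgVAT over the 8 tissues of the largest table (interaction in edgeR's quasi-likelihood fit, adjusted p = 0.0250). In pgVAT it was not called, and 1 of the 10 °C libraries stood far above the others. Because the gene was selected on these same changes, the interaction value is a description and no independent evidence.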

How the results depend on the processing

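Across all alternatives for single genes, 1699 values kept their direction and their side of the limits, 26 gained and 54 lost a call, and 3 reversed. The reversals came with the other 3 quadriceps 22 °C libraries as controls: Cdkn1a at 34 °C (-0.62), Ddit4 at 34 °C (1.14) and Ddit4 at 10 °C (-1.72). The cause was not tested. At an adjusted p under 0.05 in place of the study's limits, calls of the 9 genes were 2 at 10 °C and 1 at 34 °C, of glucocorticoid targets 18 and 7, of glucocorticoid action genes 5 at 10 °C, of p53 targets 4 at 10 °C and 2 at 34 °C, of FOXO genes 8 at 34 °C and of atrophy genes 2 at 34 °C. FOXO calls at 34 °C were also 8 with the lowest filter. Atrophy calls at 34 °C (0 as reported) were 1 with library size only, filterByExpr or the lowest filter. Calls of p53 targets at 34 °C (1 as reported) were 2 with the exact test, DESeq2, library size only, filterByExpr, all 6 quadriceps controls or the other 3, and 3 with the lowest filter. With library size only, 2 members were under 0.05 in the interaction fit of each table. With TMM over the whole table, the highest tissue at 22 °C stayed for 6 of 9 members. Without 1 library at a time, calls ranged from 7 to 11 at 10 °C and 4 to 9 at 34 °C for the 9 genes (4 without iBAT 34 °C library 3 or liver 22 °C library 2), 34 to 44 and 12 to 16 for glucocorticoid targets, 9 to 13 and 4 to 5 for glucocorticoid action genes, 11 to 18 and 4 to 8 for FOXO genes (8 without liver 22 °C library 1), 5 to 8 and 0 to 1 for atrophy genes, and 7 to 10 and 1 to 3 for p53 targets. Library size only moved the median log2FC of all genes to 0.30 in iBAT at 34 °C, 0.25 in quadriceps at 10 °C, -0.18 in iBAT at 10 °C and 0.10 in brain at 10 °C. Replicate numbers did not pair the libraries (0 of 10 tissues), and the labels give none for quadriceps and the 34 °C tissues. With the replicate block, 8 members were called at 10 °C (2 higher and 6 lower), Zbtb16 in pgVAT being lost.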

Other observations

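Clock and immediate early genes were also called outside fat. Over all genes, 4.98% were called at 10 °C and 5.31% at 34 °C. Clock genes gave 35 calls in 98 tests at 10 °C (13 higher and 22 lower) and 1 in 42 at 34 °C. Dbp, a clock output factor, was at 61.6 ± 26.1 CPM in quadriceps at 22 °C and 16.3 ± 2.52 CPM at 10 °C (log2FC -1.92, adjusted p = 0.129, edgeR's quasi-likelihood test), and in liver it pointed the other way (1.36 ± 0.598 to 5.83 ± 3.79 CPM, log2FC 2.11, adjusted p = 0.119). Immediate early genes gave 15 calls in 64 tests at 10 °C (7 higher and 8 lower), with 5 of 6 called higher in brain (2.72% of all genes called) and 4 of 6 lower in iBAT (13.2%), and 5 in 29 at 34 °C (2 higher and 3 lower). The 5 calls in brain each had an adjusted p of 0.706, and 1 of the 3 control libraries there held 65159 CPM of hepatocyte markers, whose part in these calls was not tested. Dbp was named after its values were seen.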
